A study of Drosophila melanogaster with 6 samples.

Results

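The circadian clock genes per, tim, Clk, cyc, vri, Pdp1, cry, cwo, dbt and jet were examined in brain RNA of adult Drosophila. The 10 genes were chosen by name and not by a rule on measured values, although earlier results of these data were known. They came out of 16725 genes in the count table, and all 10 were present. The gene dbt is listed there under its other symbol, dco. The brains came from flies 5 days old, of the Canton-S stock by the study's methods, with about 15 brains pooled per sample. Of the libraries, 2 were rRNA-depleted, in which DNA probes bound to rRNA and RNase H digested the hybrids, and 2 were polyA-enriched, which retains RNAs with a polyA tail. Both groups carry the numbers 1 and 2, and by the methods the RNA of each extraction was divided between the library types, so a number would stand for an RNA preparation. The sex of the flies, the light cycle and the time of day of dissection are not given in the sources used here. The samples are whole brains, so clock neurons, glia and any attached eye tissue were read together, and fewer cells of a type cannot be told apart from less RNA per cell.

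The fly clock is a loop of transcription and feedback. The proteins CLOCK and CYCLE bind E-box sequences as a pair and activate per, tim, vri, Pdp1 and cwo, whose transcripts are known to peak around evening and early night. PERIOD and TIMELESS then enter the nucleus and inhibit CLOCK and CYCLE, while VRILLE represses and PDP1 activates Clk, so that Clk and cry transcripts are known to peak around dawn. The transcript of cyc is known to be steady through the day, the kinase DOUBLETIME (dbt) phosphorylates PERIOD, and light resets the clock through CRYPTOCHROME (cry) and the F-box protein JETLAG (jet), which act on TIMELESS. The clock runs in a small set of brain neurons, in glia and in photoreceptors.

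The total count per library was between 11838449 and 14295047. The 7SK RNA, which has no polyA tail and should mark rRNA-depleted libraries, did not separate the labels, and was counted 105 times in rRNA-depleted 1 and 12378 times in rRNA-depleted 2, against 121 times in polyA-enriched 1 and 14595 times in polyA-enriched 2. It thus followed the number, while the tissue markers given next followed the label. In the fits with a block described below, 1026 genes were called more than 2-fold higher in the libraries numbered 2 and 528 lower. By label, 34 genes were called more than 2-fold higher in the rRNA-depleted libraries and 1180 lower. Whether the label, the number or neither marks the library type was not tested. Libraries are therefore named by their labels throughout, the comparison by label is not shown to be one of library types, and every clock gene is given both by label and by number. Neuronal markers were abundant in all 4 libraries, and elav, which defines neurons, lay between 584 and 837 CPM, which are counts scaled to a common library total. Markers of other tissues moved with the label. The summed level of 14 photoreceptor markers was 1455 and 1883 CPM in the rRNA-depleted libraries and 4527 and 3992 CPM in the polyA-enriched libraries. The corresponding sums of 8 fat body markers were 1175 and 2369 CPM against 15236 and 13883 CPM.

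All 10 clock genes passed the minimum of 10 counts in at least 2 libraries. The lowest count was 88, for Clk in rRNA-depleted 1, and the highest was 19953, for Pdp1 in the same library. Per kilobase of annotated exon, Pdp1 was the most abundant, at 58.5 to 115 CPM per kb. By the median over the 4 libraries it was followed by cry (27.7 to 64.5), dbt (36.5 to 51.3), cyc (26.4 to 39.7), tim (26.1 to 28.5) and cwo (17.3 to 33.3), all in CPM per kb. Lower levels were found for vri (8.69 to 17.7), per (8.58 to 17.4) and jet (7.20 to 11.7), and Clk was the lowest at 1.36 to 4.45 CPM per kb. In this order the ranges of neighbouring genes overlapped throughout, except that Clk lay below jet in every library. The place of cry depended on the label: at 32.1 and 27.7 CPM per kb in the rRNA-depleted libraries it was below dbt (39.5 and 51.3), and at 64.5 and 58.5 in the polyA-enriched libraries it was above dbt (36.5 and 43.3). Among 9620 genes ranked by level per kb, Clk stood at percentiles 16.5 to 21.7 and Pdp1 at 88.1 to 94.0. Pdp1 has 13 annotated transcripts over 12.14 kb of exon, of which only some belong to the clock, and a count per gene does not separate them.

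**Figure D1:**
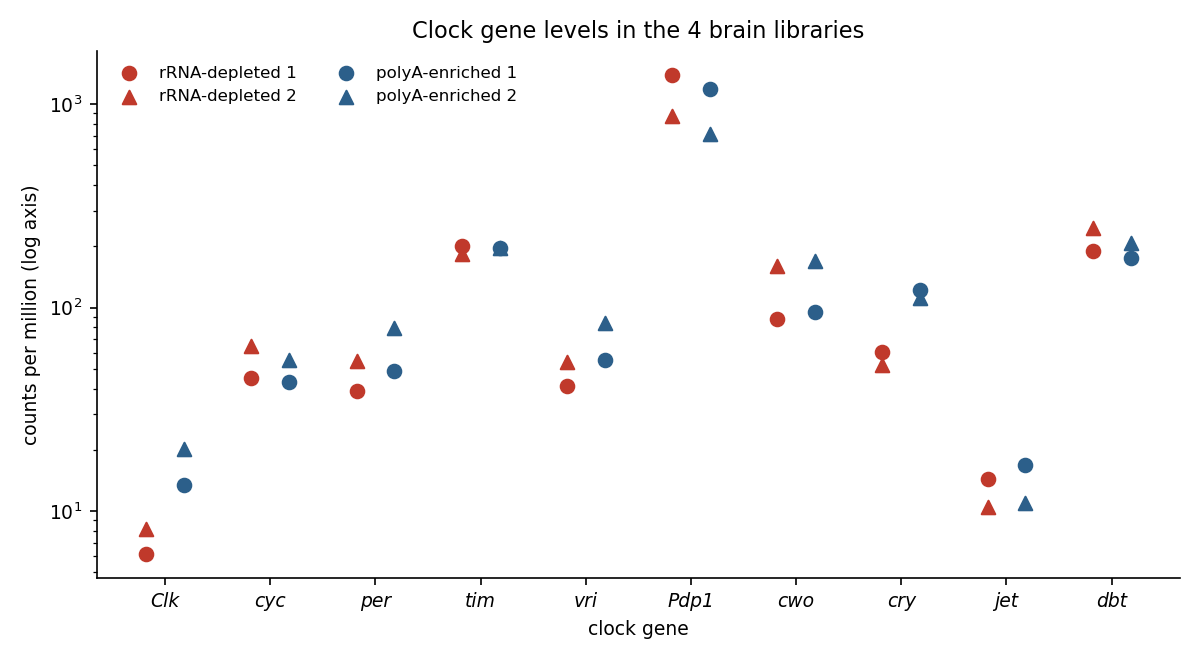
Level of each clock gene in CPM (log axis) in the rRNA-depleted (red) and polyA-enriched (blue) libraries, with circles for libraries numbered 1 and triangles for those numbered 2; each point is 1 library. Clk and cry are lower in both rRNA-depleted libraries than in both polyA-enriched libraries, while the 4 values of tim lie between 183 and 201 CPM.

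The study set the library types against each other, and the groups were compared as labelled, with the doubt about the labels given above, in edgeR's quasi-likelihood test over 9737 genes. Without the replicate number as a block, 0 clock genes had a Benjamini-Hochberg adjusted p-value under 0.05, against a background of 0% of all genes tested. Before adjustment, 2 clock genes (Clk and cry) and 1103 genes in all had a p-value under 0.05. DESeq2 called 548 of the 9737 genes past a 2-fold change and no clock gene among them. At that share, no call among 10 genes is no result about them. In that fit cry had a log2 fold change of -0.92 (adjusted p = 0.0549 by DESeq2). The replicate number was then taken as a block in edgeR, which removes whatever differs between the numbers, be it RNA preparation or library type. The p-values of this fit measure how alike the difference was in the 2 pairs, not the spread between libraries of a label. With this block, 5 of 10 clock genes passed an adjusted p-value of 0.05, against 30.3% of all genes. Clk, cry, vri and per fell in the rRNA-depleted libraries (19.2% of all genes fell), and Pdp1 rose (11.1% of all genes rose). With the further requirement of a change over 2-fold, Clk alone was called lower (12.1% of all genes), and cry missed the fold limit with a log2 fold change of -0.99. The median log2 fold change of the 10 genes was -0.08 with the block, against 0.04 for all genes.

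Clk, on chromosome arm 3L at 7763233 to 7775603 (dm6), encodes one partner of the activator. Its counts were 88 and 99 in the rRNA-depleted libraries 1 and 2, against 187 and 238 in the polyA-enriched libraries 1 and 2, or 6.16 and 8.15 CPM against 13.5 and 20.1 CPM. The groups did not overlap. The log2 fold change was -1.17 (SE 0.37, n = 2 per group, adjusted p = 0.310 by edgeR), and with the block it was -1.17 (SE 0.19, adjusted p = 1.11e-06 by edgeR). The log2 ratio was -1.12 within the pair numbered 1 (95% counting interval -1.50 to -0.74) and -1.21 within the pair numbered 2 (-1.57 to -0.87). Of all genes tested, 11.3% had a lower value with the block. Clk was also the gene of widest range, with 1.71 log2 units between its lowest and highest library. The 3 genes nearest to it in centred log2 CPM over the 4 libraries were CG17646, Traf4 and DNApol-alpha60, at distances of 0.10, 0.10 and 0.11 log2 units. With 4 libraries such likeness is easily met, and the last 2 of these had fewer than 40 counts in every library, the highest being 34.

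For cyc (3L, 19813770 to 19815938), which encodes the partner of CLOCK, no difference between the labels passed the test. The counts of cyc were 646 and 783 in the rRNA-depleted libraries against 593 and 655 in the polyA-enriched libraries, and these ranges overlapped. Its log2 fold change with the block was 0.20 (SE 0.12, adjusted p = 0.223 by edgeR). Within a library the ratio of cyc to Clk counts was 7.34 and 7.91 in the rRNA-depleted libraries, against 3.17 and 2.75 in the polyA-enriched libraries. By number, cyc was 64.5 and 55.3 CPM in rRNA-depleted 2 and polyA-enriched 2, against 45.2 and 42.9 CPM in rRNA-depleted 1 and polyA-enriched 1.

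Among the repressors, per (chromosome X, 2685580 to 2692780) and tim (2L, 3493986 to 3508119) had unlike values. The counts of per were 555 and 666 in the rRNA-depleted libraries 1 and 2, against 672 and 935 in the polyA-enriched libraries 1 and 2. As levels of 38.8 and 54.8 CPM against 48.6 and 79.0 CPM the groups overlapped, since the difference between the numbers was larger than that between the labels. Within pairs, per was lower in the rRNA-depleted library each time, with log2 ratios of -0.31 (95% counting interval -0.47 to -0.14) and -0.44 (-0.58 to -0.29). The log2 fold change with the block was -0.37 (SE 0.12, adjusted p = 0.0135 by edgeR), and without it -0.39 (SE 0.38, adjusted p = 1.00), turning to 0.02 when polyA-enriched 2 was left out. The transcript of tim was the steadiest of the 10, with 201 and 183 CPM in the rRNA-depleted libraries and 197 in each of the polyA-enriched libraries. Its log2 fold change was 0.01 with the block (SE 0.10, adjusted p = 0.931 by edgeR). Exons of tim overlap the lncRNA gene CR46495 on the opposite strand over 545 bp and a snoRNA gene on the same strand over 151 bp, and how reads there were assigned was not given in the sources used here.

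The transcription factor genes vri (2L, 5288944 to 5311223) and Pdp1 (3L, 7811458 to 7867369), which act against each other on Clk, differed in opposite directions. The counts of vri were 589 and 654 in the rRNA-depleted libraries against 763 and 995 in the polyA-enriched libraries, with no overlap in CPM (41.2 and 53.9 against 55.2 and 84.0). With the block vri fell (log2 fold change -0.48, SE 0.12, adjusted p = 0.00114 by edgeR). Pdp1 had 19953 and 10577 counts in the rRNA-depleted libraries against 16339 and 8413 in the polyA-enriched libraries, and both libraries numbered 1 exceeded both numbered 2. Within pairs it was higher in the rRNA-depleted library, by 0.26 log2 units in number 1 (95% counting interval 0.23 to 0.29) and 0.38 in number 2 (0.34 to 0.42). The log2 fold change with the block was 0.32 (SE 0.10, adjusted p = 0.00814 by edgeR), but it was -0.01 without the block when rRNA-depleted 1 or polyA-enriched 2 was left out. The repressor gene cwo (3R, 10388258 to 10400752), whose protein competes with CLOCK and CYCLE for E-boxes, had 88.1 and 160 CPM in the rRNA-depleted libraries and 95.3 and 170 CPM in the polyA-enriched libraries, a pattern that followed the number. Its log2 fold change between the labels was -0.04 with the block (SE 0.10, adjusted p = 0.816 by edgeR).

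Of the genes of light input, cry showed the clearest difference between the labels. The gene lies on 3R at 19212154 to 19215442, and CRYPTOCHROME is a blue-light receptor of clock neurons, glia and photoreceptors. The counts of cry were 869 and 637 in the rRNA-depleted libraries 1 and 2, against 1689 and 1314 in the polyA-enriched libraries 1 and 2. The means were 56.6 ± 5.89 CPM and 117 ± 7.92 CPM (SD, n = 2 each), and no library overlapped the other group. The log2 ratio was -0.99 in each pair, with counting intervals of -1.11 to -0.87 and -1.13 to -0.85. The log2 fold change was -0.99 without the block (SE 0.21, adjusted p = 0.136 by edgeR) and -0.99 with it (SE 0.11, adjusted p = 4.26e-11). The exons of cry overlap a lncRNA gene on the same strand, CR46393, over 329 bp, and vib on the opposite strand over 9 bp. The F-box gene jet (2L, 4948206 to 4949784) was scarce, with 205 and 127 counts in the rRNA-depleted libraries against 234 and 130 in the polyA-enriched libraries, and its log2 fold change with the block was -0.11 (SE 0.18, adjusted p = 0.710 by edgeR). The kinase gene dbt (3R, 31054085 to 31061210) had 189 and 246 CPM against 175 and 207 CPM, and its log2 fold change with the block was 0.24 (SE 0.10, adjusted p = 0.0551 by edgeR).

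**Figure D2:**
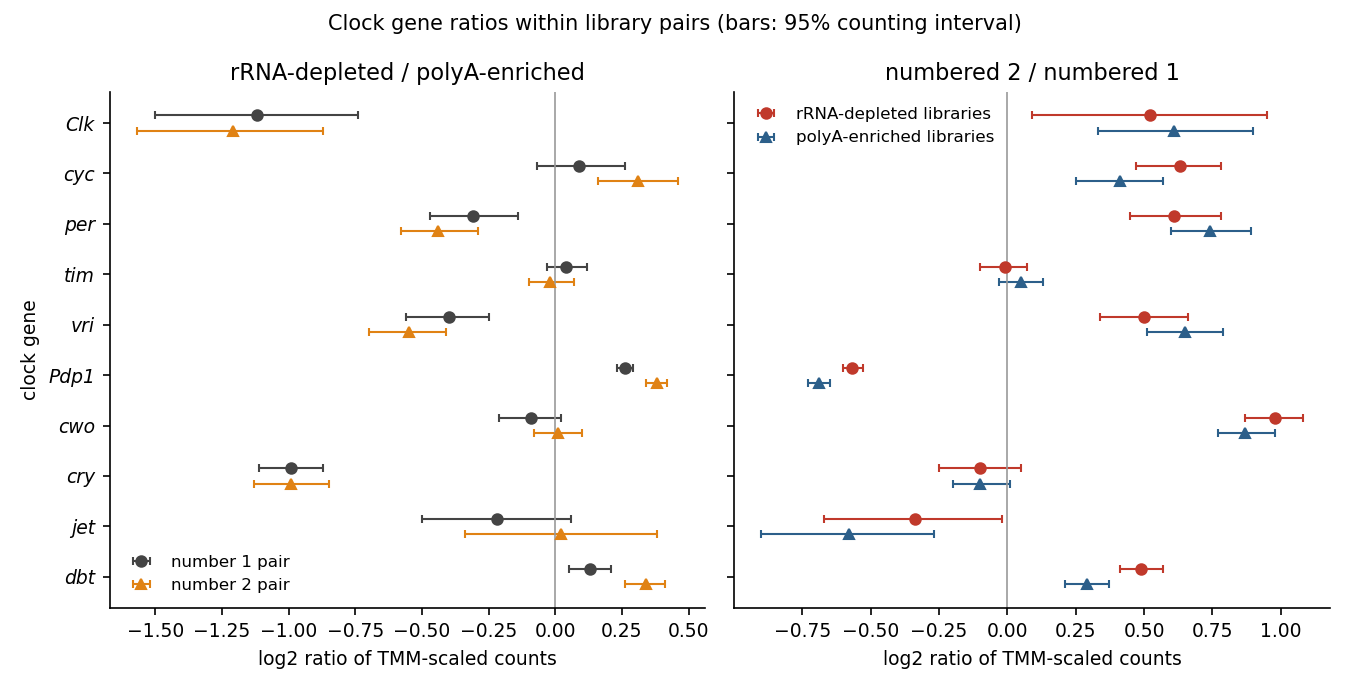
Log2 ratios of TMM-scaled counts for each clock gene, rRNA-depleted over polyA-enriched within each number (left) and numbered 2 over numbered 1 within each label (right); points are single pairs of libraries and bars are 95% intervals for counting error only. On the left, Clk and cry lie near -1 in both pairs; on the right, cwo lies at 0.98 and 0.87 and Pdp1 at -0.57 and -0.69.

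Markers of the eye moved in the same direction as Clk and cry. With the replicate block, 12 of 14 photoreceptor markers were called lower in the rRNA-depleted libraries by more than 2-fold (12.1% of all genes), and their median log2 fold change was -2.78. The rhodopsin gene ninaE had 98.7 and 63.0 CPM in the rRNA-depleted libraries and 1140 and 729 CPM in the polyA-enriched libraries, and no defining photoreceptor marker was at 0. The 2 exceptions were norpA and rdgA, with log2 fold changes of 0.01 and -0.04. The gene gl, encoding a transcription factor of photoreceptors and some clock neurons, had 42 and 24 counts against 109 and 92. All 8 fat body markers and 6 of the 7 muscle markers tested were also called lower by more than 2-fold. The part of eye and other tissue in the values of Clk and cry was not tested. The markers of clock neurons had no common direction. With the block Pdf fell (log2 fold change -0.32, adjusted p = 0.0185 by edgeR), Fer2 rose (0.50, adjusted p = 0.0145), and Pdfr had a value of -0.02 (adjusted p = 0.938). Their sum, to which Fer2 added only 12.8 to 21.3 CPM, was 248 and 153 CPM in the rRNA-depleted libraries and 268 and 179 CPM in the polyA-enriched libraries. Of 10 glial markers, 3 rose and 3 fell with the block, and of 9 neuronal markers 7 rose and 0 fell, where 11.1% of all genes rose and 19.2% fell.

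Next, the libraries numbered 2 were compared with those numbered 1 in the same edgeR test. If a number is a single RNA preparation, these p-values cover the spread between libraries of the same number and not between preparations. With a fold limit of 2, 0 clock genes were called, against 8.33% of all genes, and at an adjusted p-value under 0.05 alone cwo was the only clock gene called (13.4% of all genes). Before adjustment, 3 clock genes (cwo, cyc and per) and 3365 genes in all had a p-value under 0.05. With the label as a block 8 of 10 clock genes passed, against 56.2% of all genes. In that fit cwo (log2 fold change 0.92), per (0.68), vri (0.58), Clk (0.57), cyc (0.52) and dbt (0.39) rose (31.5% of all genes). Pdp1 (-0.63) and jet (-0.46) fell (24.7% of all genes), and tim (0.01) and cry (-0.10) did not pass. The median log2 fold change of the 10 genes was 0.45, against 0.05 for all genes. Other quantities moved with the number as well. The summed level of the 10 glial markers was 4055 and 3937 CPM in rRNA-depleted 2 and polyA-enriched 2. It was 6478 and 5808 CPM in rRNA-depleted 1 and polyA-enriched 1. Single glial markers had no common direction, and with the label block 6 fell and 3 rose at an adjusted p-value under 0.05. Those that rose were repo, moody and Mdr65, with log2 fold changes of 0.64, 0.74 and 0.82. The 3 clock neuron markers summed to 153 and 179 CPM in the libraries numbered 2, against 248 and 268 CPM in those numbered 1. Of these 3, Pdf alone fell with the label block and 0 rose. The 7SK RNA, given above, was higher in both libraries numbered 2. Their part in the values of the clock genes was not tested.

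The difference in cwo was the most regular. It had 160 CPM in rRNA-depleted 2 and 170 CPM in polyA-enriched 2, against 88.1 CPM in rRNA-depleted 1 and 95.3 CPM in polyA-enriched 1, and the groups did not overlap. The log2 fold change was 0.92 (SE 0.10, adjusted p = 0.0314 by edgeR), and across the alternatives it ran from 0.79 to 0.94 with adjusted p-values as low as 1.64e-11. The adjusted p-value was over 0.05 whenever any 1 library was left out, with values of 0.183 and 0.20 without rRNA-depleted 1 or 2 and of 0.136 and 0.123 without polyA-enriched 1 or 2, and it was 0.0642 with no count filter. Pdp1 went the other way, with 871 and 711 CPM in rRNA-depleted 2 and polyA-enriched 2, against 1396 and 1182 CPM in rRNA-depleted 1 and polyA-enriched 1. Its log2 fold change was -0.62 (SE 0.22, adjusted p = 0.145 by edgeR, and 0.0292 by DESeq2). For per the log2 fold change was 0.69 (SE 0.22, adjusted p = 0.115 by edgeR), and every library numbered 2 was above every library numbered 1. The levels of jet were 10.5 and 11.0 CPM in the libraries numbered 2, against 14.3 and 16.9 CPM in those numbered 1, without overlap, and 119 bp of its exons are shared with betaggt-I on the opposite strand.

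**Figure D3:**
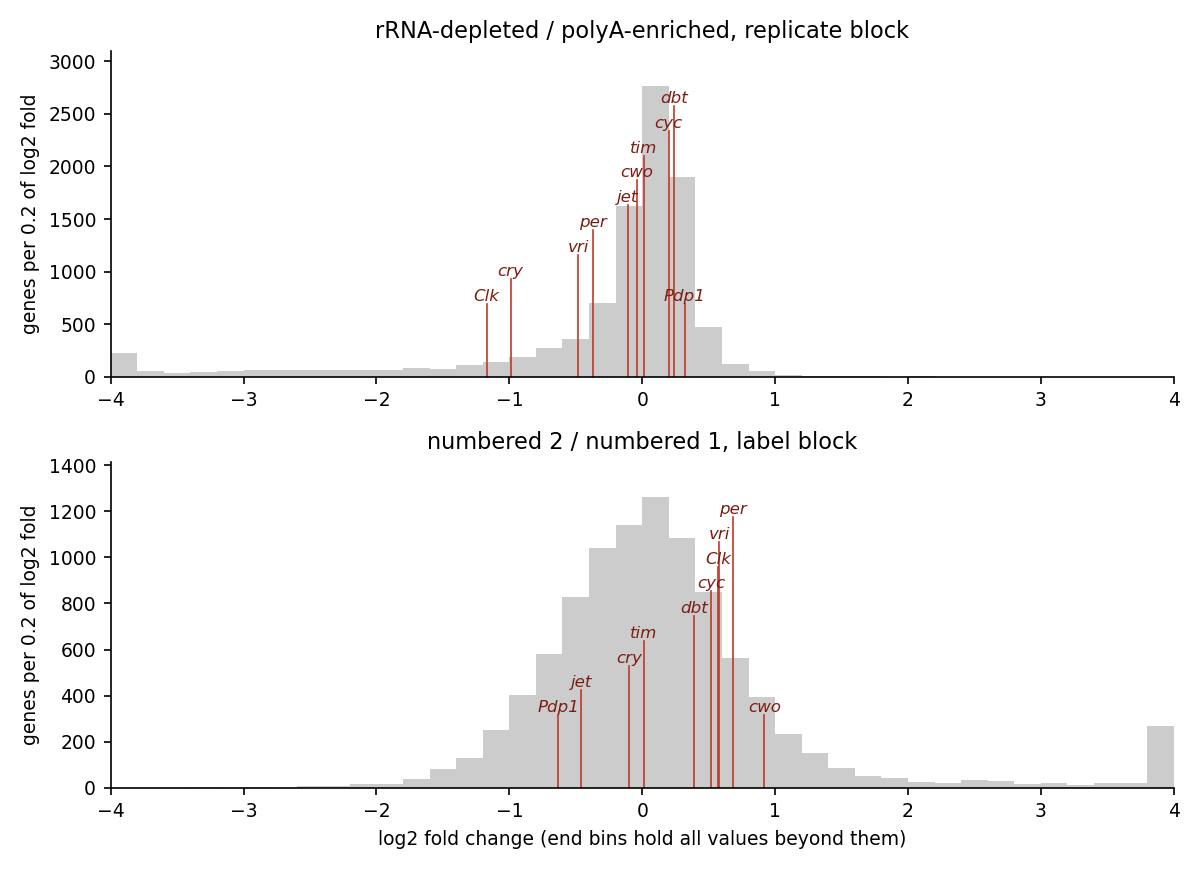
Number of genes in bins of 0.2 log2 units of fold change for rRNA-depleted over polyA-enriched libraries with the replicate block (top) and for libraries numbered 2 over numbered 1 with the label block (bottom), with the clock genes marked by red lines of arbitrary height. In the top panel Clk and cry lie on the left flank, with 11.3% and 12.7% of genes below them; in the bottom panel Pdp1 and cwo stand farthest apart, with 14.7% and 87.9% of genes below them.

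Because evening and dawn transcripts of the clock are known to run in opposite phase, their ratios were taken within each library, where no normalization is needed. Summed counts of per, tim, vri, Pdp1 and cwo over those of Clk and cry gave log2 ratios of 4.72 and 4.45 in rRNA-depleted 1 and 2, against 3.54 and 3.24 in polyA-enriched 1 and 2. The widest of the 95% counting intervals was 4.34 to 4.56, in rRNA-depleted 2. The labels differed by 1.19 log2 units (means 4.58 ± 0.19 and 3.39 ± 0.21, SD, n = 2 each; exact two-sided permutation test, p = 0.33, the smallest that 2 against 2 libraries allow). The difference was 1.18 within number 1 and 1.21 within number 2. By number it was -0.28 (means 3.85 ± 0.85 in numbered 2 and 4.13 ± 0.83 in numbered 1, SD, n = 2 each; exact permutation test, p = 0.67). Pdp1 made up 57.3% to 79.1% of the evening counts, and without it the difference by number turned to 0.45, while that by label was 0.90. Because Clk and cry form the lower part of the ratio, its difference by label is not separate from their own lower values in the rRNA-depleted libraries.

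The ratios of cyc, per, tim, vri, Pdp1 and cwo to Clk separated the labels, whereas cry over Clk, tim over per, vri over Pdp1 and jet over tim separated the numbers. These ratios that separated the labels all have Clk below the line, whose log2 fold change by label was -1.17 with the block. They therefore repeat the value of Clk and are not separate results. By label cyc (0.20), tim (0.01) and cwo (-0.04) did not themselves pass, while per and vri fell and Pdp1 rose. The ratio of per to Clk was 6.31 and 6.73 in the rRNA-depleted libraries and 3.59 and 3.93 in the polyA-enriched libraries. That of vri to Clk was 6.69 and 6.61 against 4.08 and 4.18, and that of cwo to Clk 14.3 and 19.6 against 7.04 and 8.43. In contrast, cry over Clk overlapped between the labels, at 9.88 and 6.43 against 9.03 and 5.52, and separated the numbers, at 6.43 and 5.52 in libraries numbered 2 against 9.88 and 9.03 in those numbered 1. The ratio of tim to per was 3.35 and 2.50 in rRNA-depleted 2 and polyA-enriched 2, against 5.17 and 4.05 in rRNA-depleted 1 and polyA-enriched 1. The ratio of vri to Pdp1 was 0.0618 and 0.118 in rRNA-depleted 2 and polyA-enriched 2, against 0.0295 and 0.0467 in rRNA-depleted 1 and polyA-enriched 1. The ratio of dbt to per, which does not contain Clk, also separated the labels. It was 4.87 and 4.48 in the rRNA-depleted libraries against 3.59 and 2.62 in the polyA-enriched libraries. Over the 24 comparisons of 12 ratios, no exact permutation p-value was below 0.33, or 0.67 after Benjamini-Hochberg adjustment, which is the limit of the design.

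**Figure D4:**
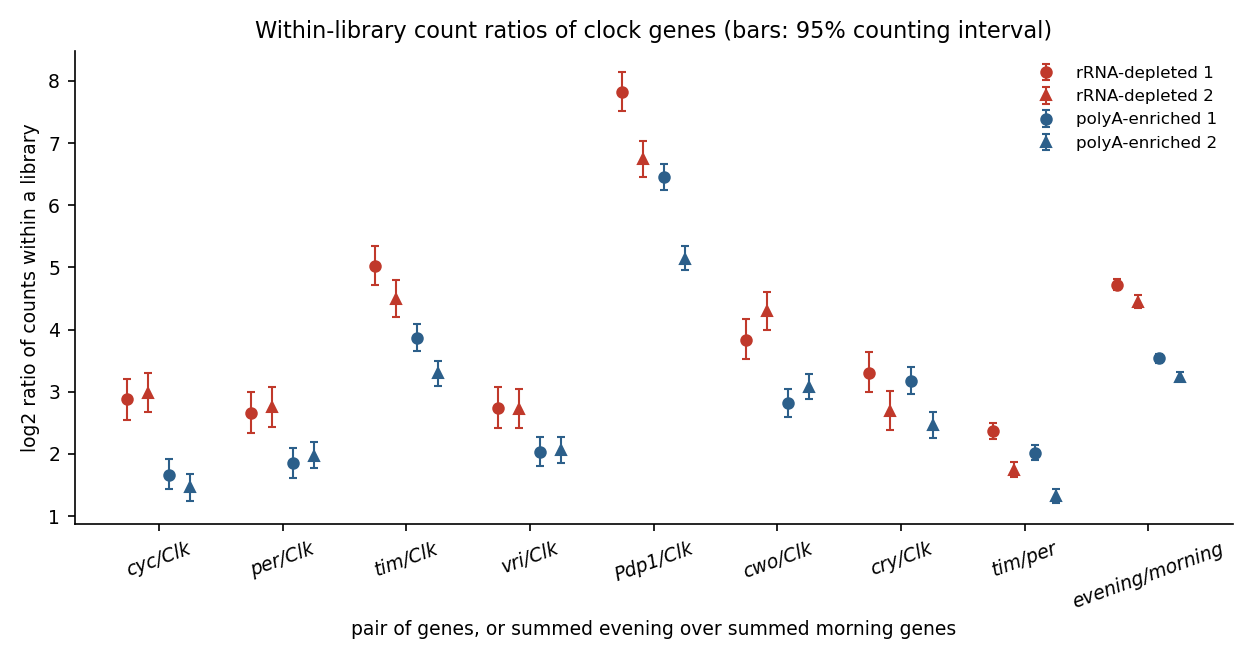
Log2 ratios of counts between clock genes within each library, and of summed evening genes (per, tim, vri, Pdp1, cwo) over summed morning genes (Clk, cry), for rRNA-depleted (red) and polyA-enriched (blue) libraries numbered 1 (circles) and 2 (triangles); bars are 95% intervals for counting error only. The ratios of cyc, per, tim, vri, Pdp1 and cwo to Clk are higher in both rRNA-depleted libraries, whereas cry over Clk and tim over per are lower in the libraries numbered 2.

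Other genes of the clock were read from 3 lists. Of 14 kinases, phosphatases and turnover factors, 0 passed between the labels without the block, and with it CkIIalpha and wdb rose, with log2 fold changes of 0.31 and 0.28 (median of the list 0.13), where 11.1% of all genes rose, so these 2 genes are no result about the list. By number without the block, where 8.93% of all genes rose and 4.47% fell, ctrip, an E3 ligase acting on CLOCK, rose by 1.24 log2 units (adjusted p = 0.0347 by edgeR) and mts, the catalytic subunit of the phosphatase PP2A, fell by 0.88 (adjusted p = 0.0378), and with the label block 3 rose and 4 fell, where 31.5% of all genes rose and 24.7% fell. Of 11 transcription and translation partners, Fer2 rose and kay and gl fell between the labels with the block, a share near the 30.3% of all genes that passed, and 0 passed without it. By number without the block, nej, the fly CBP coactivator, rose by 1.45 log2 units (adjusted p = 0.0314 by edgeR), and brm and tyf, a chromatin remodeller and a translation factor for per, rose by 1.08 and 0.72, and with the label block 6 of the 11 rose and 1 fell.

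Of 14 output and clock neuron signals, 7 rose and 3 fell between the labels with the block, where 11.1% of all genes rose and 19.2% fell, and 0 passed without it. Those that rose were Slob, na, Dh31, Dh44, CCHa1, sNPF and wake, and those that fell were Pdf, qsm and to. The clock output gene to had 1 and 2 counts in the rRNA-depleted libraries against 30 and 17 in the polyA-enriched libraries. These counts are few, and the part of other tissue in them was not tested. The neuropeptide gene Pdf, which synchronizes clock neurons, had 57.6 and 84.5 CPM in rRNA-depleted 2 and polyA-enriched 2, against 137 and 159 CPM in rRNA-depleted 1 and polyA-enriched 1. Its log2 fold change by number was -0.98 (SE 0.20, adjusted p = 0.0564 by edgeR), and the adjusted p with the label as a block was 6.88e-12. By number without the block, 3 genes of the list fell and 0 rose, where 4.47% of all genes fell and 8.93% rose. They were NPF (log2 fold change -1.45), Dh31 (-1.11) and ITP (-0.77), which encode neuropeptides made in part by clock neurons. With the label block 7 fell and 3 (Slob, na and wake) rose, where 24.7% of all genes fell and 31.5% rose. The median of the list was -0.36 by number, against 0.05 for all genes.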

How the data were processed

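By the submitters' processing notes, the authors used Trimmomatic, STAR, the dm6 genome and featureCounts, and the deposited values are raw, unpooled counts. Versions, gene annotation and strand setting are not given in the sources used here. Of 16729 rows, 4 without whole-number counts were left out, and 0 columns were unassigned. Libraries of S2 cells were not used here. Exon lengths and overlaps came from the Ensembl annotation of BDGP6, which has dm6 coordinates, with 12510 symbols matched directly and 3991 by an older symbol.

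Counts were tested with edgeR 4.0.16 in R 4.3.3 (quasi-likelihood, TMM, at least 10 counts in at least 2 libraries), and calls needed an adjusted p-value under 0.05 and, where stated, an absolute log2 fold change over 1. DESeq2 1.42.0 was an alternative. Standard errors are the log2 fold change over the square root of F. CPM are per library total. Counting intervals are 95% exact binomial intervals and cover counting error only. By the methods the total RNA was split, so the number served as a block, although, with 7SK RNA following the number, preparation and library type cannot be told apart. Deviations of same-numbered libraries correlated across 9737 genes (Pearson's r 0.902). The tests were run beforehand on simulated counts with known changes. Those counts held no other difference shared by label or number, unlike the libraries here, so the runs do not show how the tests behave on these data.

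The genes named were the 10 clock genes, 3 lists of other clock genes, marker lists, and the 3 genes nearest the clock gene of widest range. Members, lists and the grouping by number were chosen with earlier results of these data known. The methods call the libraries of a label biological replicates, and with 2 of each the p-values by label without a block measure the spread between these libraries. A block takes out the differences between the numbers, or between the labels, first. P-values with a block therefore measure how alike the difference was in the 2 pairs. Alternatives were other normalizations, filters, thresholds, blocks, DESeq2 and leaving out each library. RefSeq tables were used for names only, and no sequences are printed.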

Additional observations from a re-analysis of the deposited data

How the results depend on the processing

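Between the labels, 0 genes were called in the main test, against 1214 with the replicate block (2952 without the fold limit, an alternative added after seeing the data), 255 with no count filter, 153 with 10 counts required in all 4 libraries, 548 with DESeq2, and 0 to 457 when a library was left out. The highest counts were 457 without rRNA-depleted 2 and 377 without polyA-enriched 2. Clock genes called between the labels numbered 0 in the main test, 1 with the replicate block and 5 with that block and no fold limit. Between the numbers, 811 genes were called, against 1554 with the label block (5473 without the fold limit, also added), 149 with no count filter, 0 at an adjusted p-value of 0.01, 1305 with no fold limit, and 0 to 5 without a library: 5 without polyA-enriched 1 and 0 without each of the others. Clock genes called between the numbers were 0, or 1 with no fold limit and 8 with the label block and no fold limit.

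The evening-to-morning difference by label was 0.90 without Pdp1 and 0.97 as a mean of log2 counts, and 1.04 to 1.34 without a library. By number it was 0.45 and 0.08 under the same 2 changes, and -0.89 to 0.32 without a library, turning positive without rRNA-depleted 1 (0.31) or polyA-enriched 2 (0.32). No clock gene whose direction turned had passed the unblocked test of that comparison, but by label no gene at all passed it. Some that turned had passed with the block in edgeR. They were per (adjusted p = 0.0135) and Pdp1 (0.00814) by label and Clk (0.00923) by number. By label, tim was -0.04 with library totals and cwo 0.03 with DESeq2 or its size factors. Leaving out a library moved per from -0.74 to 0.02 (without polyA-enriched 2), cyc from -0.14 (without rRNA-depleted 2) to 0.50, Pdp1 from -0.01 (without rRNA-depleted 1 or polyA-enriched 2) to 0.75, cwo from -0.61 to 0.47 (positive without rRNA-depleted 1 or polyA-enriched 2), dbt from -0.03 (without rRNA-depleted 2) to 0.47 and jet from -0.39 to 0.26 (positive without rRNA-depleted 2 or polyA-enriched 1). By number, tim was -0.04 with DESeq2 or its size factors, -0.06 with library totals, -0.12 with no filter, -0.00 with 10 counts in all libraries and -0.13 (without polyA-enriched 1) to 0.04 without a library, Clk ran from -0.14 (without polyA-enriched 2) to 1.13, and cry from -0.68 to 0.36 (positive without rRNA-depleted 2 or polyA-enriched 1). Clk stayed between -1.47 and -0.84 and cry between -1.05 and -0.89 by label in all alternatives. The cause of these changes was not tested. A fit without a library rests on a single library in 1 group, assumed to vary like the others. Such fits had no block, so the numbers were then unequal between the labels, and differences by number entered the values by label. The same holds for labels in the fits by number. Within same-numbered pairs, the log2 ratios by label were 0.26 and 0.38 for Pdp1 and -0.09 and 0.01 for cwo. DESeq2's size factors moved the median log2 fold change of all genes by label to 0.11, against 0.04. Depth limited jet and Clk, whose counting intervals were the widest.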
